A study of Homo sapiens with 4 samples.

Results

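The interferon-stimulated genes described here are a set of 34 genes that cells switch on after sensing interferon. They were chosen by name, each read from its brightest probe set that names 1 gene. Of the 34, 33 were named among the 19775 genes of these arrays, and STAT2 was not analysed here. The 33 comprise transcription factors, nucleic acid sensors, oligoadenylate synthetases, the ISG15 system, the IFIT family, blocks to viral entry or replication, other induced proteins and 1 chemokine.

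Type I interferons bind a receptor whose kinases JAK1 and TYK2 switch on the complex ISGF3. This complex, which holds STAT2 and IRF9, binds the interferon-stimulated response element (ISRE) in the promoters of most genes of this set. Interferon gamma acts through a second element, the gamma-activated site (GAS), and the IRF1 gene is a well-known target of that arm. Glioma cells carry the receptors and can run this program, and many of its products block the replication of viruses.

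The cells were U87TR-Da, a doxycycline-inducible derivative of the human glioblastoma line U87MG, and the study asked how expression changes when DACH1, a nuclear repressor of transcription, is present. Total RNA of 4 cultures was hybridised to 4 Affymetrix arrays, 1 array per condition. The conditions were DACH1-induced cells labelled serum-free, DACH1-silenced cells labelled serum-free, DACH1-induced cells labelled serum and DACH1-silenced cells labelled serum. The serum-free medium was Neurobasal, to which EGF, bFGF, B-27 and N-2 were added, and the serum medium was DMEM with 10% fetal bovine serum. All 4 samples, the silenced ones included, carry one treatment line of doxycycline at 1 µg/mL for 72 h, so how the silenced cells were kept apart is not stated. All arrays come from 1 derived line, and no condition was replicated, so the small number of arrays limits how precise any value is.

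To show the DNA next to these genes' starts, promoters from RefSeq (build GRCh38.p14, 250 bases before to 50 after the start) were searched on both strands. The letters used were GAAANNGAA for the core of the ISRE and TTCNNNGAA for the GAS. The promoters below belong to genes that carry the results on the medium label and on DACH1. In all but the IRF1 promoter the capitals mark the ISRE core, which reads TTCNNTTTC where the match lies on the other strand. In the IRF1 promoter the capitals mark the GAS. The first 3 belong to IFI44L (chr1:78620198-78620497, plus strand), a protein of unclear function in the antiviral state, to DDX60 (chr4:168318703-168319002, minus strand), a helicase-like antiviral factor, and to HERC5 (chr4:88456869-88457168, plus strand), the ligase that attaches ISG15 to proteins. They had the 3 largest falls among members with a promoter entry.
IFI44L promoter: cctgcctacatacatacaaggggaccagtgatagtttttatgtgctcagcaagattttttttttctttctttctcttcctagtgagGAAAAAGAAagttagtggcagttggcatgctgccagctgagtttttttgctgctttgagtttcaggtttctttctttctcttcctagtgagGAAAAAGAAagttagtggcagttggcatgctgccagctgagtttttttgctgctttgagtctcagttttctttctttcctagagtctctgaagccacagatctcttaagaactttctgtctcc
DDX60 promoter: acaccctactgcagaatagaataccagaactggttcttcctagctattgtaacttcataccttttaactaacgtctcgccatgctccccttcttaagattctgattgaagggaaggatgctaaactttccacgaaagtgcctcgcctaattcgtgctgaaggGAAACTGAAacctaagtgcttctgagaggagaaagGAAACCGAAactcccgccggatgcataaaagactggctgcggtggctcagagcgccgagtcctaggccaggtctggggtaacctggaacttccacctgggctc
HERC5 promoter: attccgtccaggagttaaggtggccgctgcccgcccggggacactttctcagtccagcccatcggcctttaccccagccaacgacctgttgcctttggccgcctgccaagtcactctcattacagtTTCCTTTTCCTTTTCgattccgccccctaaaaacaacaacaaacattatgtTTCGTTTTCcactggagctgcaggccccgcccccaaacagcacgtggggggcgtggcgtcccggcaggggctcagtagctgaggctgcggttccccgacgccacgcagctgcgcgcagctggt

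Next come IFIT1 (chr10:89392373-89392672, plus strand), which binds foreign RNA ends, and OAS3 (chr12:112938224-112938523, plus strand), an oligoadenylate synthetase. Both rose on the arrays labelled serum-free. ISG15 (chr1:1013247-1013546, plus strand), the ubiquitin-like modifier, is shown as a member that did not pass the test of the medium label. IRF1 (chr5:132490724-132491023, minus strand), an interferon regulatory factor, was lower with DACH1 on the arrays labelled serum.
IFIT1 promoter: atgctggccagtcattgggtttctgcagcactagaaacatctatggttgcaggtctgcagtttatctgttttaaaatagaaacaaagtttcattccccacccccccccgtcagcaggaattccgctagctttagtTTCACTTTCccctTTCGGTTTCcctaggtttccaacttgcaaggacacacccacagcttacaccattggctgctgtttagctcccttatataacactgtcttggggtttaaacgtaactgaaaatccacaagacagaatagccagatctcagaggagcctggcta
OAS3 promoter: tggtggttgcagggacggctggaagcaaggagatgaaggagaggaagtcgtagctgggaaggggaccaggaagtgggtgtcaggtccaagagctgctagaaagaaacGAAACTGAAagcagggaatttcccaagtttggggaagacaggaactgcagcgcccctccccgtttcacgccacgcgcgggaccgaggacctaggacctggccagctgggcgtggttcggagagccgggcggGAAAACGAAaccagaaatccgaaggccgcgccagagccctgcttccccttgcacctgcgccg
ISG15 promoter: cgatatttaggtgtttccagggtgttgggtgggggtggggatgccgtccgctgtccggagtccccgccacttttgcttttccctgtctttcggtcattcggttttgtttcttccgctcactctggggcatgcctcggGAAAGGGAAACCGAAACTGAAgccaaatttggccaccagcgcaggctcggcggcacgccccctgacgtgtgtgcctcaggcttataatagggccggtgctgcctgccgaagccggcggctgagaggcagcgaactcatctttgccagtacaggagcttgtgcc
IRF1 promoter: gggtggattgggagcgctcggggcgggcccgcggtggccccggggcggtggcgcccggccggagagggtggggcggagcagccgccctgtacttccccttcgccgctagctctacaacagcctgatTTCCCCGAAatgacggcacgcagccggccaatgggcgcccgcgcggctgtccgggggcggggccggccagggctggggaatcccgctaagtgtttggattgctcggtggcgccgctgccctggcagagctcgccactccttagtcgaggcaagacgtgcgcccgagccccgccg

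The IFI44L promoter holds an exact direct repeat of 85 bases, whose copies begin 189 and 98 bases before the start. Each copy carries 1 ISRE core, beginning 164 and 73 bases before the start. The longest direct repeats of the other 6 printed promoters were 7 to 10 bases. In HERC5 and ISG15 some matches overlap each other, so that the capitals run together. Entries were found for 26 members, 8 of them with several starts, giving 35 promoters. The ISRE core stood in 19 of the 26 genes (73.1%), against 9.86% of all 27305 genes with an entry. At the level of promoters, 8.11% of all 35116 held it. The GAS stood in 10 of 26 member genes (38.5%), against 9.38% of all genes and 7.66% of all promoters. Both motifs overlapped in 5 of the 35 member promoters. These matches are a description of the letters in a 300-base window. IFIT2, MX2, OAS2, OASL, IRF7, IFITM2, USP18 and TRIM22 had no entry.

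Matches to the ISRE core were spread over the members whatever they did with the medium label, a comparison given further on. They stood in 3 of 3 members that rose and in 4 of 5 that fell, counting members with an entry. They also stood in 7 of 11 that did not pass and in 5 of 7 outside the fit.

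**Figure D1:**
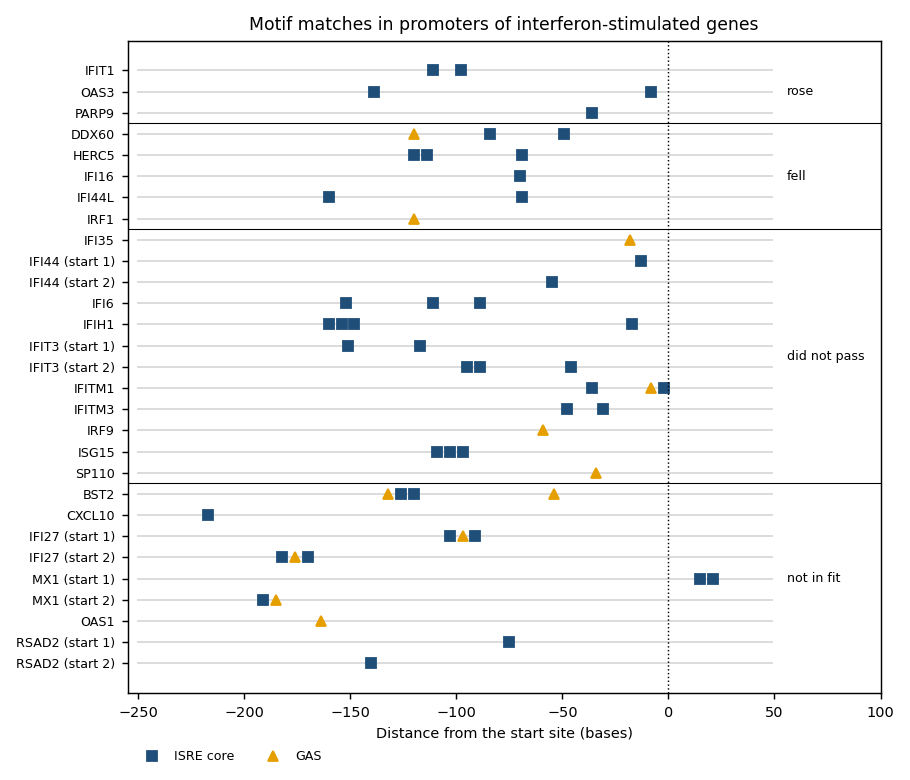
Positions of the ISRE core (squares) and the GAS (triangles) in promoters of members with at least 1 match, as distance of the match's centre from the start site in bases. Rows are grouped by the medium test (rose, fell, did not pass, not in fit), and the ISRE core appears in each of these groups.

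Each array reported 54613 probe sets, with median signals from 15.7 to 19.3 on the MAS5 scale. DACH1, read first as a check of the labels, gave 875.1 on the induced and 32.5 on the silenced array labelled serum-free, a 26.9-fold difference. It gave 4431 on the induced and 126 on the silenced array labelled serum, a 35.2-fold difference. On this probe set both pairs matched their labels. Of its other 2 probe sets, one was under a signal of 10.9, the floor used here, on all arrays and the other gave 2.9 on the induced and 12.1 on the silenced array labelled serum-free, against 24.7 on the induced and 23.1 on the silenced array labelled serum. Of 10 glioma and astroglial markers, 4 were under the floor on all arrays (GFAP, S100B, SOX2 and AQP4). The other 6 were above the floor on all arrays, among them VIM at 6065.4 to 9277.8, CD44 at 4213.6 to 5665.5 and TNC at 3165.4 to 3471.0. Of 8 leukocyte markers measured, CD14 and AIF1 were under the floor throughout and PTPRC reached 11.1 at most, while LCP1 lay at 226.1 to 634.2, CSF1R at 19.3 to 72.2 and CD74 at 22.2 to 36.0. Of 4 plasmacytoid dendritic cell markers, LILRA4 and IL3RA were under the floor throughout, CLEC4C reached 11.2 at most and TCF4 lay at 151.6 to 299.6.

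Signals are given as deposited, on a linear scale. A signal under 10.9, the 40th percentile of all signals, was treated as at a floor, and a gene entered a comparison of a pair if 1 of its arrays reached 17.2, the median of all signals. Signals of different genes are not set against each other, since probes differ in brightness. In bulk RNA, fewer cells expressing a gene and less RNA per cell cannot be told apart. The plot of all members by array shows that 2 members lay under the floor on every array. They were BST2 (tetherin, which holds budding virions at the cell surface), at 1.2 to 2.0, and CXCL10, a chemokine that attracts T cells, at 1.2 to 4.1. MX1, a dynamin-like GTPase that traps viral nucleoproteins, reached at most 13.0. RSAD2 (viperin) reached 11.8, OAS1 12.0 and IFI27 16.9 at most, so none of these 6 members entered the fit over all 4 arrays. Several genes that respond most to interferon in other cells were thus at or near the floor.

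**Figure D2:**
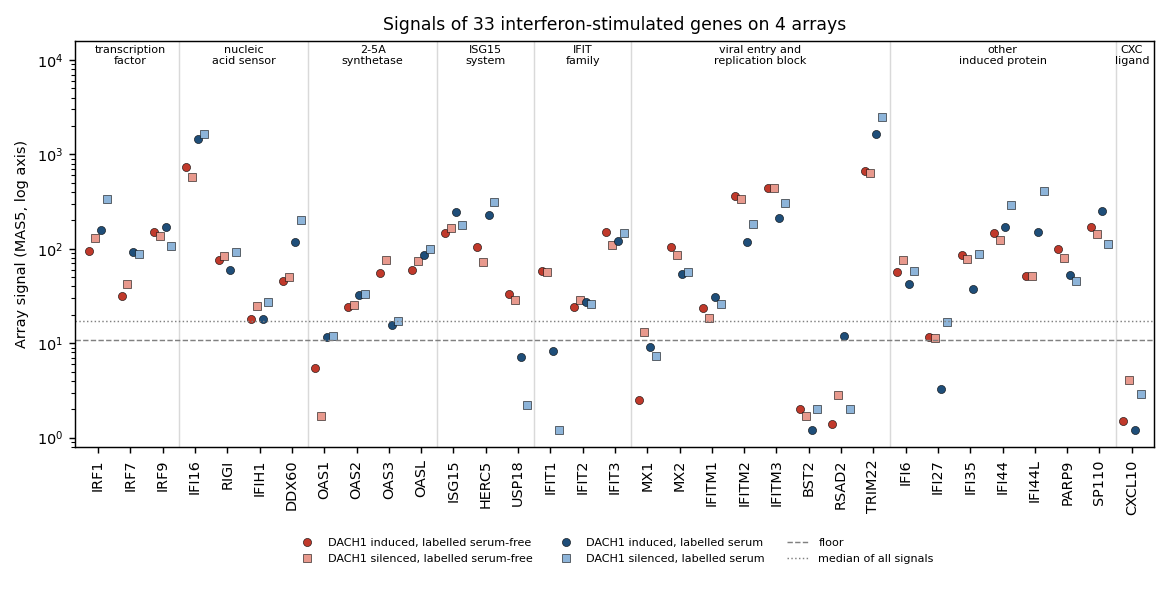
Signal (MAS5, log axis) of the 33 members on each of the 4 arrays, 1 point per array, grouped by role, with the floor (10.9) dashed and the median of all signals (17.2) dotted. BST2 and CXCL10 lie under the floor on every array and IFIT1 and USP18 on both arrays labelled serum.

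The first comparison asked what induced DACH1 did to these genes. On the arrays labelled serum most members were lower with DACH1, and on the arrays labelled serum-free they lay on both sides of 0. IFI44L, IFI35 and IRF1 were at least 2-fold lower, and SP110 was at least 2-fold higher, on the induced array labelled serum. No member differed 2-fold on the arrays labelled serum-free. With 1 array per condition these pairs have no replicate check. Markers of other cells differed in the same pair labelled serum: of 5 fibroblast markers, 3 were at least 2-fold lower with DACH1 (FAP 4.46-fold, DCN 2.78-fold and LUM 2.10-fold) and 0 higher. The summed fibroblast signal was 2249.3 on the induced and 4313.7 on the silenced array labelled serum, and 9843.2 on the induced and 11004 on the silenced array labelled serum-free. Of 6 glioma and astroglial markers compared labelled serum, 5 were higher with DACH1, 0 of them by 2-fold, and 1 was lower, SLC1A3. It gave 12.8 on the induced and 135.0 on the silenced array labelled serum, 10.5-fold lower. On the arrays labelled serum-free SLC1A3 gave 104.1 with induced and 158.0 with silenced DACH1. The part of all these markers in the members' differences was not tested.

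Of the 24 members compared on the arrays labelled serum, 17 were lower with DACH1 and 7 higher. Their median log2 difference was -0.38, against 0.01 for all 12190 genes compared. At 2-fold, 1 was higher and 3 were lower, where 2.91% of all genes were higher and 4.77% lower. On the arrays labelled serum-free, 15 of 27 members were higher and 12 lower, and the median log2 difference was 0.04 against -0.00 for all 12659 genes. There 0 members passed 2-fold in either direction, where 1.02% of all genes were higher and 2.72% lower. After quantile normalization the serum-free split over all genes moved to 153 higher and 213 lower, against 129 higher and 344 lower as deposited, and the members stayed at 0. With a floor of 50 and a filter of 100, 2 genes of 7297 were higher and 9 lower labelled serum-free, and 165 of 7353 were higher and 260 lower labelled serum.

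Among the transcription factors, IRF1 gave 93.9 on the induced and 130.3 on the silenced array labelled serum-free, against 160.0 on the induced and 334.0 on the silenced array labelled serum. Its silenced array labelled serum stands above the other 3, and the DACH1 difference there was 2.09-fold lower. A second IRF1 probe set gave 67.6 on the induced and 140.2 on the silenced array labelled serum, 2.07-fold lower. IRF9, the DNA-binding subunit of ISGF3, went the other way, with 169.9 on the induced and 107.8 on the silenced array labelled serum. It gave 150.8 on the induced and 136.1 on the silenced array labelled serum-free, so both IRF9 differences were under 2-fold. IRF7, which amplifies interferon production, had 91.9 and 87.7 on the induced and silenced arrays labelled serum, with hardly any gap between them. Its signals labelled serum-free were 31.3 with induced and 42.7 with silenced DACH1.

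IFI44L had the largest DACH1 difference of the set labelled serum, with 152.5 on the induced and 413.2 on the silenced array, 2.71-fold lower. On the arrays labelled serum-free its signals were 51.7 with induced and 51.4 with silenced DACH1, practically the same. IFI44, its neighbour on chromosome 1, gave 170.3 on the induced and 289.4 on the silenced array labelled serum, and 146.8 and 123.2 on the induced and silenced arrays labelled serum-free. IFI44 was thus lower with DACH1 in one pair and higher in the other, under 2-fold in both. IFI35, a leucine zipper protein induced by interferon, gave 37.6 on the induced and 88.7 on the silenced array labelled serum, 2.36-fold lower. Its signals labelled serum-free were 85.9 with induced and 78.4 with silenced DACH1. Only the induced array labelled serum stood apart for IFI35, below the other 3.

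SP110, a nuclear body component related to SP100, ran opposite to these genes. It gave 251.8 on the induced and 113.4 on the silenced array labelled serum, 2.22-fold higher, and 168.4 and 142.8 on the induced and silenced arrays labelled serum-free. All 5 SP110 probe sets were higher with DACH1 labelled serum, by log2 differences of 0.63 to 1.83. They share a gene, so they are not replicates of the condition. All 5 end in _x_at or _s_at, so SP110 drops out when such probe sets are left aside. Then 0 members were 2-fold higher with DACH1 labelled serum. On the arrays labelled serum-free the log2 differences of the 5 probe sets ran between -0.12 and 0.46, on both sides of 0.

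Several antiviral members were lower with DACH1 labelled serum without reaching 2-fold. TRIM22, a restriction factor of retroviruses, gave 1629.0 on the induced and 2485.1 on the silenced array, 1.53-fold lower. DDX60 gave 117.3 on the induced and 203.2 on the silenced array, 1.73-fold lower. Among the sensors of viral RNA, RIGI gave 60.3 on the induced and 91.5 on the silenced array and IFIH1 (MDA5) gave 18.2 and 27.2. Both sensors were about as far below their silenced array, at 1.52-fold and 1.49-fold. IFITM2 and IFITM3, which hinder the fusion of viral with cell membranes, gave 117.1 and 212.4 on the induced array, against 183.6 and 306.6 on the silenced array. The differences were 1.57-fold and 1.44-fold lower. IFITM1 went the other way, with 30.7 on the induced and 25.9 on the silenced array. The corresponding log2 differences labelled serum-free were 0.13 for IFITM2, -0.00 for IFITM3 and 0.37 for IFITM1. ISG15 was higher with DACH1 labelled serum (244.7 induced, 180.3 silenced) and lower labelled serum-free (146.0 induced, 167.4 silenced), by less than 2-fold each time.

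**Figure D3:**
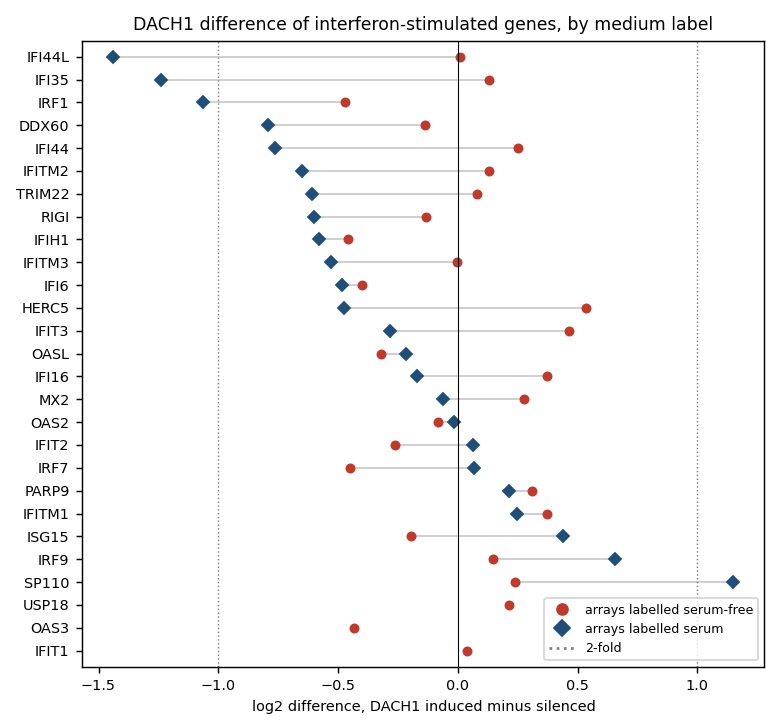
The log2 difference of DACH1-induced minus DACH1-silenced cells for each member, on the arrays labelled serum-free (circles) and labelled serum (diamonds), with 2-fold dotted and 1 array per condition. The diamonds of IFI44L (-1.44), IFI35 (-1.24) and IRF1 (-1.06) lie beyond 2-fold lower and that of SP110 (1.15) beyond 2-fold higher, while no circle reaches 2-fold.

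The limma fit over all 12103 genes, with DACH1 state and medium label as terms and 1 residual degree of freedom, called no member for DACH1. It tests a DACH1 difference common to both media. Of the 27 members in the fit, 0 were higher and 0 lower at a Benjamini-Hochberg adjusted p under 0.05, where 0% of all genes were higher and 0% lower. At an unadjusted p under 0.05 there were 2 members, IRF1 and IFIH1, and 585 genes in all, and the smallest adjusted p of a member was 0.931. Such a p-value covers just the scatter among these 4 arrays, since nothing in the labels names repeated cultures.

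Other interferon-stimulated genes, a list of 54 without the members, lay lower with DACH1 on the arrays labelled serum too. Of 44 compared, 37 were lower and 7 higher (median log2 difference -0.26), and 8 were at least 2-fold lower and 0 higher, where 4.77% of all genes were lower and 2.91% higher. CASP1, the protease that activates interleukin 1 beta, gave 75.2 on the induced and 299.7 on the silenced array, 3.99-fold lower. GBP1 and GBP2, guanylate-binding proteins induced by interferon gamma, were 3.31-fold and 2.69-fold lower, and EPSTI1 was 3.08-fold lower. On the arrays labelled serum-free, 20 of 43 were higher and 23 lower, and 1 passed 2-fold (2.72% of all genes were lower), ISG20, an RNA exonuclease, at least 2.72-fold lower with DACH1. The plot of cumulative shares sets both lists beside all genes.

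**Figure D4:**
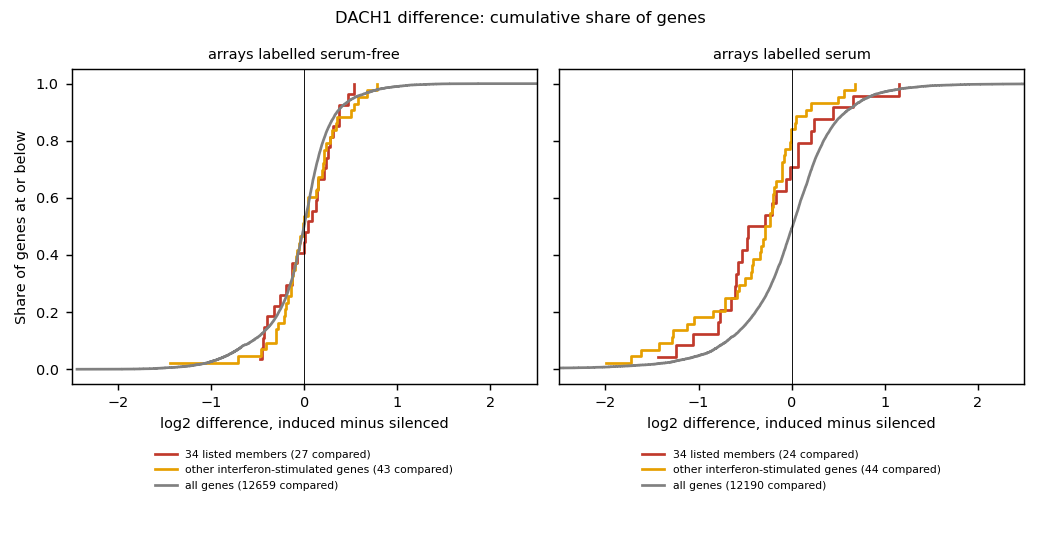
Cumulative share of genes at or below each log2 difference of DACH1-induced minus DACH1-silenced cells, left for the arrays labelled serum-free and right for those labelled serum. The members and the other interferon-stimulated genes lie left of all genes in the right panel (medians -0.38 and -0.26, against 0.01) and close to all genes in the left panel (0.04 and -0.01, against -0.00).

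The DACH1 differences on the 2 kinds of arrays were then set against each other as a difference of differences, the log2 difference labelled serum-free minus that labelled serum. DACH1 itself was 5.06-fold lower labelled serum-free in induced cells and 3.88-fold lower in silenced cells. Its part in the members' values was not tested. The difference of differences has no test, since no array is left to give an error. It was above 0 in 19 of 27 members and below 0 in 8, with a median of 0.21 against -0.01 for all genes. For IFIT1 and USP18 the floor replaced their signals labelled serum, so their DACH1 difference there was set to 0. Their values, 0.04 and 0.21, are therefore just their differences labelled serum-free, and the sign of each is not a measured contrast. The median of 0.21 is the value of USP18. With no floor, 2 members were below -1. At 1 on the log2 scale, 4 members were above and 0 below, where 5.4% of all genes were above and 4.76% below. The 4 were IFI44L (1.45), IFI35 (1.37), IFI44 (1.02) and HERC5 (1.01), and after quantile normalization IFI44 was at 0.95, below that threshold. HERC5 gave 105.7 on the induced and 73.0 on the silenced array labelled serum-free, against 227.1 on the induced and 315.4 on the silenced array labelled serum.

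The second comparison asked how these genes differed by medium label. IFI44L, DDX60, TRIM22, HERC5, IRF7, IFI16 and IRF1 fell on the arrays labelled serum-free, by 2.09-fold to 4.87-fold. IFIT1, OAS3, USP18, IFITM2 and PARP9 rose. In 3 of the roles 1 member rose and 1 fell.

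In the limma fit 5 of 27 members were higher (18.5%) and 7 were lower (25.9%) at an adjusted p under 0.05, where 15.4% of all genes were higher and 12.7% lower. The median log2 difference of the members was -0.08, against 0.02 for all genes. At an unadjusted p under 0.05 there were 14 members and 5527 genes in all. Of the 5 that rose, IFIT1, OAS3 and USP18 entered the fit only through the 2 arrays labelled serum-free, and a gene that enters this way has to be higher there. With all 19775 genes in the fit, 0 members and 0 genes passed, and with no floor 3 members were higher and 4 lower.

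Within single pairs the members also went both ways. In silenced cells 3 of 27 members were higher and 8 lower labelled serum-free, where 15.3% of all genes were higher and 12.2% lower. In induced cells 6 of 27 were higher and 5 lower, where 14% of all genes were higher and 10.1% lower. Higher by 2-fold in both DACH1 states were 3 members, IFIT1, OAS3 and USP18, where 9.42% of all genes were. Lower by 2-fold in both were 5, DDX60, HERC5, IFI44L, IRF7 and TRIM22, where 6.98% of all genes were. IFI35 was 2.28-fold higher labelled serum-free in induced cells and 1.13-fold lower in silenced cells.

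For the roles that follow, the limma fit had 15.4% of all genes higher and 12.7% lower labelled serum-free. Each role holds few genes, so these counts are not read as results about a role. Of the 3 transcription factors in the fit, 2 fell and 0 rose. IRF7 gave 31.3 on the induced and 42.7 on the silenced array labelled serum-free, against 91.9 on the induced and 87.7 on the silenced array labelled serum. Its log2 difference was -1.30 ± 0.22 (SE, limma adjusted p = 0.0298). IRF1, with the signals given above, fell by 1.06 on the log2 scale (SE 0.23, limma adjusted p = 0.0427). Its silenced array labelled serum-free (130.3) lay close to its induced array labelled serum (160.0). IRF9 lay within 107.8 to 169.9 on all arrays and did not pass (log2 difference 0.08, limma adjusted p = 0.799).

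Of the 4 nucleic acid sensors, 2 fell and 0 rose. IFI16, a nuclear sensor of viral DNA, gave 743.8 on the induced and 575.1 on the silenced array labelled serum-free, against 1470.9 on the induced and 1653.8 on the silenced array labelled serum. Its log2 difference was -1.25 ± 0.22 (SE, limma adjusted p = 0.0318), and all 3 of its probe sets were lower labelled serum-free in both DACH1 states. DDX60 gave 45.8 and 50.3 on the induced and silenced arrays labelled serum-free, against 117.3 and 203.2 on those labelled serum. Its log2 difference was -1.69 ± 0.24 (SE, limma adjusted p = 0.0241). RIGI and IFIH1, the cytoplasmic helicases that detect viral RNA, gave 60.3 to 91.5 and 17.9 to 27.2 over the 4 arrays and did not pass. The 3 RIGI probe sets disagreed, with log2 differences of -0.68, 0.45 and 0.09.

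The oligoadenylate synthetases, which make the messenger that activates RNase L, had 1 rise and 0 falls among 3 members in the fit. OAS3 gave 55.8 on the induced and 75.3 on the silenced array labelled serum-free, against 15.5 on the induced and 17.0 on the silenced array labelled serum. It entered the fit only through the arrays labelled serum-free, so its p-value is not given. It rose 3.99-fold in the fit, with an SE of 0.19 on the log2 scale. A second, dimmer OAS3 probe set did not show it, with 21.3 on the induced and 3.6 on the silenced array labelled serum-free, against 20.2 on the induced and 2.4 on the silenced array labelled serum. It was higher with DACH1, at least 1.95-fold labelled serum-free and at least 1.85-fold labelled serum. OAS2 and OASL, a relative without synthetase activity in human cells, had log2 differences of -0.40 and -0.47 and did not pass.

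The ISG15 system, in which HERC5 attaches the modifier ISG15 and USP18 removes it, had 1 member that rose and 1 that fell. HERC5 fell by 1.61 on the log2 scale (SE 0.31, limma adjusted p = 0.0354). USP18, which also blocks the type I interferon receptor, gave 32.9 on the induced and 28.4 on the silenced array labelled serum-free, against 7.2 on the induced and 2.2 on the silenced array labelled serum. Both serum signals lie under the floor, so USP18 was at least 3.02-fold higher labelled serum-free in induced cells and at least 2.61-fold higher in silenced cells. USP18 entered the fit only through the arrays labelled serum-free, so its p-value is not given. ISG15 itself had a log2 difference of -0.43 ± 0.24 (SE) and did not pass.

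In the IFIT family, 1 of 3 members rose. IFIT1 gave 58.4 on the induced and 56.8 on the silenced array labelled serum-free, against 8.3 on the induced and 1.2 on the silenced array labelled serum. It was at least 5.36-fold higher labelled serum-free in induced cells and at least 5.21-fold higher in silenced cells, the largest rise of the set in this fit. IFIT1 entered the fit only through the arrays labelled serum-free, so its p-value is not given. Its neighbours on chromosome 10, IFIT2 and IFIT3, did not follow, with log2 differences of -0.01 and -0.04. IFIT2 lay between 24.1 and 28.9 and IFIT3 between 109.9 and 151.7, with the media intermixed.

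Of the 5 entry and replication blocks in the fit, 1 rose and 1 fell. TRIM22 gave 668.1 on the induced and 631.4 on the silenced array labelled serum-free, against 1629.0 on the induced and 2485.1 on the silenced array labelled serum, a log2 difference of -1.63 ± 0.25 (SE, limma adjusted p = 0.0261). IFITM2 gave 365.3 and 334.2 on the induced and silenced arrays labelled serum-free, against 117.1 and 183.6 on those labelled serum. Its log2 difference was 1.25 ± 0.26 (SE, limma adjusted p = 0.0408). The IFITM genes lie side by side on chromosome 11 and are near copies of each other, so their probe sets may share signal. IFITM3 (log2 0.80, limma adjusted p = 0.0657) and MX2 (log2 0.77, limma adjusted p = 0.0569), a nuclear-envelope block to HIV, were just outside the threshold. IFITM1 lay on the other side of 0 and did not pass (log2 -0.43, limma adjusted p = 0.147).

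Of the 6 other induced proteins in the fit, 1 rose and 1 fell. IFI44L had the largest fall of the set, with 51.7 and 51.4 on the induced and silenced arrays labelled serum-free, against 152.5 and 413.2 on those labelled serum. Its log2 difference was -2.28 ± 0.41 (SE, limma adjusted p = 0.0318), 2.95-fold lower in induced and 8.04-fold lower in silenced cells. PARP9, which works with DTX3L on interferon signalling, gave 99.0 and 79.9 on the induced and silenced arrays labelled serum-free, against 52.7 and 45.5 on those labelled serum. It rose by 0.86 on the log2 scale (SE 0.18, limma adjusted p = 0.0395), and its second probe set differed by 0.90. IFI6, an anti-apoptotic protein, lay between 42.1 and 75.4 and did not pass.

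**Figure D5:**
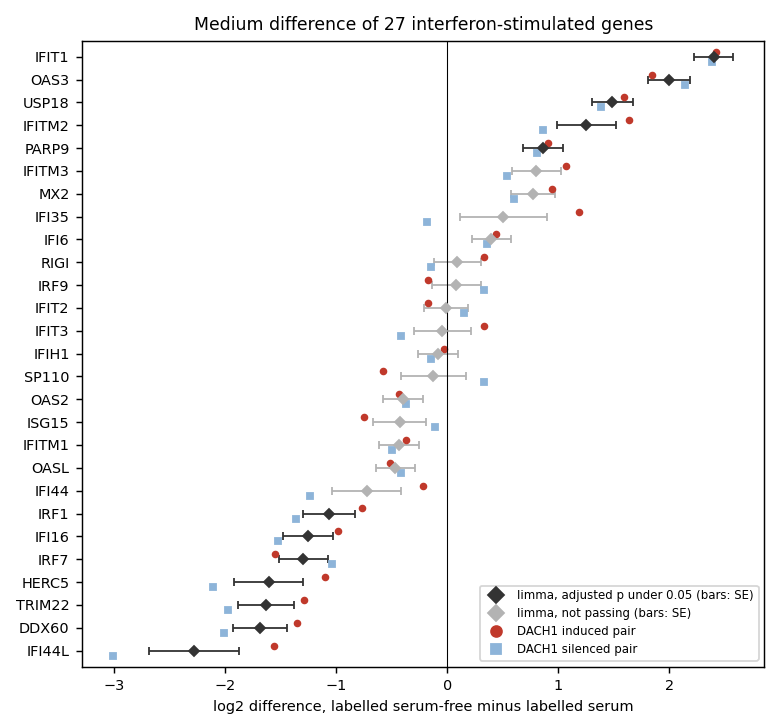
The log2 difference of arrays labelled serum-free minus labelled serum for the 27 members in the fit, with the limma estimate (diamond, bar = SE, dark where the adjusted p is under 0.05), the induced pair (circle) and the silenced pair (square). The order runs from IFIT1 (2.40) to IFI44L (-2.28). Both pairs lie on the same side of 0 for each of the 12 dark members. A call in this fit requires that, since the gap between the pairs enters its error. IFIT1, OAS3 and USP18 entered the fit only through the arrays labelled serum-free.

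Upstream of the members, transcripts of the interferons were at or near the floor. IFNB1 gave 0.6 to 1.3, and IFNA1, IFNA2, IFNG and IFNK were also under the floor on all arrays. IFNL1 was the only ligand to reach the median of all signals, with 14.1 on the induced and 19.5 on the silenced array labelled serum-free, against 11.2 on the induced and 9.5 on the silenced array labelled serum. For the lists of genes that follow, the limma fit had 15.4% of all genes higher and 12.7% lower labelled serum-free. Of 5 receptor subunits in the fit, 3 fell and 0 rose. IFNGR2 fell by 1.12 (SE 0.18, limma adjusted p = 0.0275), IFNAR2 by 0.94 and IFNGR1 by 0.79 on the log2 scale. With DACH1, 0 of these subunits differed 2-fold in either pair.

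Of 14 JAK-STAT genes in the fit, 3 fell labelled serum-free and 0 rose, where 12.7% of all genes fell. SOCS3, an inhibitor of JAK kinases, gave 50.1 on the induced and 37.0 on the silenced array labelled serum-free, against 248.3 on the induced and 418.6 on the silenced array labelled serum, a log2 difference of -2.90 ± 0.35 (SE, limma adjusted p = 0.0203). The phosphatase PTPN2 and the kinase JAK2 fell by 1.10 and 0.93 on the log2 scale. STAT4 was 3.52-fold lower with DACH1 on the arrays labelled serum. STAT5A was at least 2.03-fold lower there, with its induced array under the floor.

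Of 14 genes of nucleic acid sensing, 1 rose labelled serum-free, the kinase IKBKE, and 4 fell, where 15.4% of all genes rose and 12.7% fell. The falls were AIM2, a sensor of DNA related to IFI16 (log2 -1.66), the adaptor TANK (-1.42), IRF3 (-0.99) and TRIM25 (-0.97), the ligase that activates RIG-I. IRF2, a competitor of IRF1, fell by 1.15 on the log2 scale (SE 0.19, limma adjusted p = 0.0286). Of 44 other interferon-stimulated genes, 4 rose and 6 fell, where 15.4% of all genes rose and 12.7% fell, with a median log2 difference of -0.44. The chemokine CCL5 gave 2.4 and 2.0 on the induced and silenced arrays labelled serum-free, against 63.1 and 113.6 on those labelled serum, at least 5.79-fold and at least 10.4-fold lower. GBP2, TNFSF10, SAMD9 and SAMD9L were the 4 that rose. CCL5, counted as a fall, entered the fit only through the arrays labelled serum. TNFSF10, counted as a rise, entered only through those labelled serum-free (27.3 induced and 31.4 silenced, against 10.3 and 5.7 labelled serum). The direction of both was thus fixed by the filter.

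The medium difference is given by label only, because most genes of 2 lists were higher on the arrays labelled serum-free. The lists were growth genes and a mixed list of serum response, contractile and ID genes. Of 12 proliferation genes, 11 rose labelled serum-free and 0 fell, with KIF20A up by 3.07 and MKI67 by 2.64 on the log2 scale. Of 14 genes of the serum response, contractile fibres and ID proteins, 10 rose and 1 fell, with THBS1 up by 4.54 and CNN1 by 4.33. The 1 that fell was SRF (log2 -1.06, limma adjusted p = 0.0456), and CCN1, CCN2 and TPM2 did not pass. Of 8 sterol genes 1 rose, LSS. Markers of other cells moved with the label as well. The summed signal of 8 leukocyte markers was 325.3 and 385.9 on the induced and silenced arrays labelled serum-free, against 731.9 and 626.5 on those labelled serum. LCP1 made up most of these sums, with 226.1 and 233.5 labelled serum-free against 634.2 and 536 labelled serum. Of the 3 leukocyte markers in the fit, LCP1 fell by 1.34 and CSF1R rose by 1.52 on the log2 scale (limma adjusted p = 0.0239 and 0.0308). The summed signal of 5 fibroblast markers was 9843.2 and 11004 on the induced and silenced arrays labelled serum-free, against 2249.3 and 4313.7 on those labelled serum. COL1A1 rose 6.36-fold and LUM 2.83-fold (limma adjusted p = 0.0167 and 0.0355), while DCN fell by 3.47 on the log2 scale (limma adjusted p = 0.0203), with 73.7 and 72.5 on the induced and silenced arrays labelled serum-free, against 485.3 and 1349.2 on those labelled serum. Of 6 glioma and astroglial markers in the fit, 1 fell, OLIG2, and 0 rose. OLIG2 gave 12.3 and 12.2 on the induced and silenced arrays labelled serum-free, against 79.9 and 58.4 on those labelled serum, a fall of 2.48. It entered the fit only through the arrays labelled serum, where such a gene has to be higher, so its p-value is not given. The endothelial marker KDR fell by 1.95 (limma adjusted p = 0.0282). KDR gave 23.1 and 26.7 on the induced and silenced arrays labelled serum-free, against 127.8 and 72.1 on those labelled serum. The endothelial marker PECAM1 lay within 29.2 to 35.7 on all arrays. CDH5 went the other way, with 11.7 and 8.3 labelled serum-free against 1 and 0.5 labelled serum. VWF and CLDN5 were under the floor. The part of growth state or of these markers in the members' differences was not tested.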

How the data were processed

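Total RNA of 4 U87TR-Da cultures was labelled from 6 µg and hybridised to Affymetrix arrays, as the labels' protocols state. Signal intensities on a linear scale were deposited, made by the authors with MAS5 per the submitters' processing notes; its version is not given in the sources used here. MAS5 subtracts mismatch-based background, so low signals are noisy. Trimmed means were 99.63 to 99.65 on all arrays, and 0 columns were unused.

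Of 54613 probe sets, 41091 had 1 gene in the platform annotation, 1801 several and 11721 none listed, and symbols were updated through Entrez identifiers for 99.9% of the first kind. Signals under the 40th percentile (10.9) were raised to that value, and log2 was then taken. A gene was read from the probe set with the highest mean of these floored log2 values, ties going to the higher mean without the floor. A pair included a gene if 1 array reached the median of all signals (17.2), and the limma fit if 2 of 4 did. Pairs were counted at 2-fold with no test. A fold against a floored signal is written "at least". The fit (lmFit, eBayes) had DACH1 state and medium label as terms, no interaction and Benjamini-Hochberg adjustment, and was tested on simulated data. The members, all lists (8 beside the members, with 145 genes, 11 not named here) and the alternatives were chosen with earlier results of these data known. The text names all members, DACH1, up to 4 genes of each list per direction with the largest differences among those passing, and some list genes outside that rule, chosen after their values were seen. Promoter letters came from RefSeq. Alternatives were quantile normalization, no floor, no filter, a floor of 50 with a filter of 100, the mean of all probe sets, leaving aside the _x_at and _s_at probe sets, and a variance prior with a trend. The software was limma 3.58.1 in R 4.3.3, with numpy 2.4.6, pandas 2.3.3 and matplotlib 3.10.9 in Python 3.11.15.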

Additional observations from a re-analysis of the deposited data

Results flagged for a closer look

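IFI35 and IFI44L stood out because their DACH1 differences had opposite signs on the 2 kinds of arrays. For IFI35 the log2 difference of induced minus silenced cells was 0.13 labelled serum-free and -1.24 labelled serum, 1.37 apart. For IFI44L it was 0.01 labelled serum-free and -1.44 labelled serum, 1.45 apart, and the positive value is so close to 0 that its sign carries little. The medium difference of IFI35 stood out for the same reason, at 1.19 in induced and -0.18 in silenced cells, again 1.37 apart. With 1 array per condition, none of these differences was tested. Opposite signs with 1 difference at least 2-fold were found between the 2 kinds of arrays for 3.40% of all 11475 genes compared in both DACH1 pairs, and for 2 of 24 members.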

How the results depend on the processing

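Of the 12 members called for the medium label, 12 were still called after quantile normalization and with a variance prior with a trend, and 11 with the mean of all probe sets. With a floor of 50 and a filter of 100, and without probe sets ending in _x_at or _s_at, 7 remained in the fit and 7 were called. No alternative turned the direction of any of the 12. With no floor the fit called 3 members higher and 4 lower, and over all genes 1234 higher and 929 lower, against 1862 and 1534 with it (the cause was not tested). With no filter it called 0 higher and 0 lower among 19775 genes, where limma gave an unadjusted p under 0.05 for 4531 genes and 8 members (the cause was not tested). With a floor of 50, 2 were higher in the fit, and at 2-fold 0 were higher in silenced and 2 in induced cells. Without probe sets ending in _x_at or _s_at, 3 were lower in the fit, at 2-fold 3 were lower in silenced cells, 3 were higher and 2 lower in induced cells, and 0 were higher with DACH1 labelled serum. Over all genes, 2-fold DACH1 counts labelled serum-free were 129 higher and 344 lower, against 211 and 569 with no floor, 68 and 177 with the mean of probe sets and 2 and 9 with a floor of 50. That floor also gave 165 higher and 260 lower with DACH1 labelled serum (355 and 581 as reported), and 1158 higher in silenced and 1078 in induced cells labelled serum-free (1972 and 1732). The difference of differences had 653 genes above and 576 below as reported, 216 and 142 with that floor and 399 and 359 with the mean of probe sets. The fit's DACH1 term called 1 gene, no member, with the trend. In the difference of differences, 2 members were below -1 with no floor. The medium differences of 3 uncalled members turned: IFIT2 (0.0653) and RIGI (-0.0461) with the mean of probe sets, and OASL (0.0369) without the named probe sets. Signals near the floor and single arrays limit these values. No paired analysis was possible because the labels carry no replicate numbers and each condition has 1 array.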

Other observations

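The few probe sets that name several genes were outside the counts. One shared by IFITM2 and IFITM1 gave 26.1 on the induced and 26.7 on the silenced array labelled serum-free, against 19.3 on the induced and 31.2 on the silenced array labelled serum. One shared by IRF9 and RNF31 gave 25.8 on the induced and 27.0 on the silenced array labelled serum-free, against 34.9 on the induced and 35.4 on the silenced array labelled serum.

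AIM2 was 2.09-fold higher with DACH1 on the arrays labelled serum, the opposite of CASP1, the protease it activates. The RNA receptor TLR3 was 2.10-fold lower with DACH1 there, and the DNA sensor CGAS was 2.03-fold lower with DACH1 on the arrays labelled serum-free. These 3 values come from single pairs and have no test.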
